A study of Mus musculus with 4 samples.

Results

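The genes described here are 7 survival genes of the BCL2 family, Bcl2, Bcl2l1, Bcl2l2, Mcl1, Bcl2a1a, Bcl2a1b and Bcl2a1d, chosen by symbol from the 16142 genes of the expression table. Survival proteins of this family sit on the outer mitochondrial membrane and hold in check the pore-forming effectors BAX and BAK, which release cytochrome c and start the caspase cascade. BH3-only proteins, the stress sensors of the family, bind the survival proteins or the effectors and tip a cell towards death. In T cells BCL2 serves mainly resting cells, BCL-xL (encoded by Bcl2l1) and A1 (encoded by the Bcl2a1 copies) are induced by antigen receptor and CD28 signals, and MCL1 is a short-lived protein needed at all stages.

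RNA-seq was analysed for 2 libraries of wild-type (WT) CD4+ T cells and 2 of R111A CD4+ T cells. Regnase-1, encoded by Zc3h12a, is an RNase that degrades mRNA with stem-loops in the 3'UTR, and T cell receptor signals remove it through cleavage by MALT1. R111A is a mutant that MALT1 cannot cleave, and the comparison asks which transcripts differ when it is present in activated T cells. WT cells were from B6 mice, and R111A cells were from Cd4CreERT2 LSL-R111A fl/fl animals. There the mutant is joined to EGFP and read from the CAG promoter in the Rosa26 locus after Cre removes a STOP cassette. Cre is driven by Cd4 and needs tamoxifen, given i.p. at 75 mg/kg for 5 days, and the labels leave unclear whether the WT mice of these libraries received it. Splenic CD4+ T cells were purified with beads, sorted by FACS and activated with 5 µg/mL anti-CD3 plus 1 µg/mL anti-CD28 over 12 h, and the gate of the sort and the age of the mice are not given in the labels. Nothing says that the libraries came from separate animals, so p-values measure only the spread between these samples, which may be technical.

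Values are FPKM, reads scaled by transcript length and by the mapped reads of the library, so levels of different genes can be set side by side. Read counts were not used here, and the total FPKM of WT replicates 1 and 2 was 801475 and 836143 against 1053551 and 1012215 for R111A replicates 1 and 2. Steps left by single reads among low values, read in bins of 0.05 on the log2 scale, put both WT libraries at the same depth, which exceeded R111A replicate 1 by a factor of 1.07 and replicate 2 by a factor of 1.19. Equal values in both libraries of a group were found for 0.661% of the genes tested in WT and 0.234% in R111A, so each library was counted as its own sample. Zc3h12a was at 16.97 and 15.72 FPKM in WT against 196.3 and 130.87 FPKM in R111A, higher in both R111A libraries, and reads of the transgene and of the native gene are not told apart in them. T cell genes were abundant in every library, with the 8 measured T cell markers summing to 2175 and 2194 FPKM in WT against 1937 and 1701 FPKM in R111A, and Cd3g the most abundant except in R111A replicate 1, where Cd5 (296.42 FPKM) and Lck (295.35 FPKM) exceeded it (288.70 FPKM). Cd4 was at 157.54 and 131.28 FPKM in WT against 70.69 and 51.35 FPKM in R111A, and Cd8a was at 0.20 FPKM or less in each library.

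Regnase-1 is known to bind hairpins in the 3'UTR, so one such stretch is shown for Bcl2l1, and whether it has a part in the level of the gene was not tested. It lies in the 3'UTR of a GENCODE transcript on the minus strand at chr2:152782014-152782038 of GRCm38. The capitals mark the paired stem arms, 4 bases each at bases 113 to 125 of the 3'UTR, and the 5 bases between them form the loop, which holds a pyrimidine-purine-pyrimidine run.
Bcl2l1 3'UTR hairpin: cccttgCCCTatcacAGGGttgggc
The same search, for 4 Watson-Crick pairs around a loop of 5 bases with that run in it, was made in the longest annotated 3'UTR of each gene. It found 1 such hairpin in the first 200 bases of the Bcl2l1 3'UTR and 0 in the first 200 bases of the 3'UTR of each of the other 6 survival genes, those of the Bcl2a1 copies having only 147 to 149 bases. Of 8945 genes that averaged 1 FPKM or more and had a 3'UTR of at least 200 bases, 25.2% had 1 or more in that stretch. Over the whole 3'UTR the density was 1.35 per kilobase for Bcl2l1, 1.26 for Bcl2l2, 0.983 for Bcl2 and 0 for Mcl1, against a median of 1.56 over these genes. These were 2 hairpins in Bcl2l1, 4 in Bcl2l2 and 5 in Bcl2. The paper had already placed a Regnase-1 stem-loop in the first 200 bases of the Bcl2l1 3'UTR, so the match there is no independent result. Hairpins with shorter stems or other loop sizes, which the paper's own screen allowed, were not counted here. A 0 therefore does not mean that a gene lacks such hairpins. A match of letters is a description, and folding was not computed here.

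Bcl2l1 (NCBI gene 12048; chromosome 2 from 152758732 to 152833803 of GRCm38, minus strand) was at 88.55 and 95.78 FPKM in WT replicates 1 and 2, a mean of 92.2 ± 5.11 (SD, n = 2). In R111A it was at 24.83 and 18.94 FPKM, a mean of 21.9 ± 4.16 (SD, n = 2). Both R111A libraries were below both WT libraries, and the WT mean was 4.21 times the R111A mean. On the log2(FPKM + 1) scale, on which the change of low genes is understated, the fold change was -2.04 (SE 0.16, adjusted p = 2.7e-05, limma with Benjamini-Hochberg adjustment over the 9831 genes averaging 1 FPKM or more). Only 0.732% of the genes tested had a lower fold change. In WT 92.5% and 93.0% of genes lay below Bcl2l1 in FPKM, and in R111A 79.3% and 75.0% did. These are bulk libraries, so fewer cells that express a gene and less RNA per cell cannot be told apart.

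**Figure D1:**
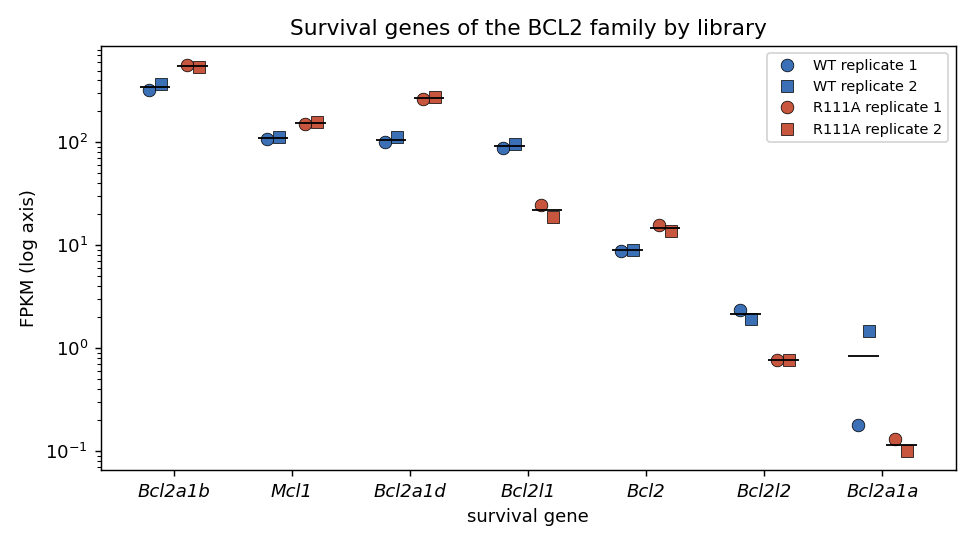
FPKM on a log axis of the 7 survival genes in WT replicates (blue) and R111A replicates (red), with circles for replicate 1, squares for replicate 2 and lines for group means. Bcl2l1 lies near 90 FPKM in WT and near 20 FPKM in R111A, while Bcl2a1b, Bcl2a1d, Mcl1 and Bcl2 lie higher in both R111A libraries.

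Bcl2l2, which encodes BCL-w, was the other survival gene that fell. Its level was 2.37 and 1.93 FPKM in WT against 0.76 FPKM in both R111A libraries, a log2 fold change of -0.84 (SE 0.14, adjusted p = 0.0014, limma with Benjamini-Hochberg adjustment). It passed the filter of a mean of 1 FPKM only through its WT values. Of its 3714 windows of 100 bases, 433 also occur in the transcripts of Gm20521, a gene that overlaps it, so its value is uncertain where the counting could split reads.

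Mcl1, whose protein binds BAK and several BH3-only proteins, was higher in R111A. It was at 108.39 and 113.29 FPKM in WT, a mean of 110.8 ± 3.46 (SD, n = 2), and at 150.74 and 156.30 FPKM in R111A, a mean of 153.5 ± 3.93 (SD, n = 2). The R111A mean was 1.39 times the WT mean, and the log2 fold change was 0.47 (SE 0.12, adjusted p = 0.012, limma with Benjamini-Hochberg adjustment). Bcl2, the founding member of the family, was at 8.88 and 8.99 FPKM in WT against 15.66 and 13.75 FPKM in R111A. This was 1.65 times as much in the mean and a log2 fold change of 0.66 (SE 0.14, adjusted p = 0.0045, limma with Benjamini-Hochberg adjustment). For both genes the R111A libraries lay above the WT libraries. Of the 7092 windows of 100 bases of Bcl2, 399 also occur in transcripts of D630008O14Rik, an overlapping gene.

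Both calls depended on the setting. With the values rescaled to TPM, so that each library has the same sum, the log2 fold change was 0.35 for Bcl2 (adjusted p = 0.063 in limma, 0.00049 to 0.069 over its alternatives) and 0.13 for Mcl1 (adjusted p = 0.39 in limma, 0.0024 to 0.39 over its alternatives). The calls were also lost without WT replicate 1 (limma adjusted p = 0.069 for Bcl2 and 0.18 for Mcl1) and without WT replicate 2 (0.060 and 0.12). Rescaling moved the median of all genes tested by -0.30, from -0.12 to -0.42. Relative to that median Bcl2 was at 0.77 as deposited and 0.77 in TPM, Mcl1 at 0.58 and 0.55, and Bcl2l1 at -1.92 and -1.95.

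Bcl2a1a, Bcl2a1b and Bcl2a1d are near-identical copies on chromosome 9 that encode the A1 protein, and reads may be shared among them. Bcl2a1d lies from 88723288 to 88731850 (minus strand), Bcl2a1a from 88956920 to 88962416 (plus strand) and Bcl2a1b from 89199273 to 89207838 (plus strand) of GRCm38. Their coding sequences have 519 bases each, stop codon included, and differed at 11 bases between Bcl2a1a and Bcl2a1b (97.88% identity), 7 between Bcl2a1a and Bcl2a1d (98.65%) and 6 between Bcl2a1b and Bcl2a1d (98.84%). The 60 coding bases with the most differences, bases 1 to 60, are shown because only such positions let a read be given to a copy. They are at chr9:88957051-88957110 (plus strand), chr9:89199360-89199419 (plus strand) and chr9:88731660-88731719 (minus strand), and the capitals mark the 6 positions, of 12 in the whole coding sequence, at which the copies are not all the same.
Bcl2a1a: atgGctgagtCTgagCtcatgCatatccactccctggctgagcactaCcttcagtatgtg
Bcl2a1b: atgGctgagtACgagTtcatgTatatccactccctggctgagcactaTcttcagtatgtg
Bcl2a1d: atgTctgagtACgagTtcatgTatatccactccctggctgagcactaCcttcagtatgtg
Of the windows of 100 bases along the annotated transcripts, 43.5% of 720 for Bcl2a1a, 56.8% of 718 for Bcl2a1b and 54.7% of 764 for Bcl2a1d also occurred in transcripts of another gene. For Bcl2a1c, another copy on the same chromosome that is not among the 7 genes, the share was 0% of 345 windows.

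Bcl2a1b was the most abundant survival gene in every library, at 320.91 and 371.27 FPKM in WT against 562.95 and 546.09 FPKM in R111A. Its log2 fold change was 0.68 (SE 0.13, adjusted p = 0.0025, limma with Benjamini-Hochberg adjustment), and 0.35 after rescaling to TPM (adjusted p = 0.029 in limma). Bcl2a1d was at 100.09 and 111.85 FPKM in WT against 262.49 and 276.96 FPKM in R111A, 2.55 times as much in the mean and a log2 fold change of 1.34 (SE 0.13, adjusted p = 6.8e-05, limma with Benjamini-Hochberg adjustment). Both copies were higher in both R111A libraries. Bcl2a1a was at 0.18 and 1.48 FPKM in WT against 0.13 and 0.10 FPKM in R111A, below the filter, and without a filter its log2 fold change was -0.62 (SE 0.45, adjusted p = 0.43, limma with Benjamini-Hochberg adjustment).

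The sum of the 3 copies depends little on how reads were split among these copies, whose annotated transcripts have 817 to 863 bases, but reads may also be shared with Gm29094, a gene with no row in the expression table. Its transcripts hold 303 of the 718 windows of Bcl2a1b and 118 windows each of Bcl2a1a and Bcl2a1d. The sum was 421.18 and 484.60 FPKM in WT against 825.57 and 823.15 FPKM in R111A, 1.82 times as much in the mean and a log2 fold change of 0.87 (SE 0.13, adjusted p = 0.00069, limma with Benjamini-Hochberg adjustment), and 0.53 in TPM (adjusted p = 0.0025 in limma). The split itself also differed, since Bcl2a1b was 3.21 and 3.32 times Bcl2a1d in the WT libraries and 2.14 and 1.97 times in the R111A libraries, a ratio chosen after the values were seen. Bcl2a1c was at 31.25 and 28.86 FPKM in WT against 44.15 and 43.80 FPKM in R111A (log2 fold change 0.54, SE 0.13, adjusted p = 0.0080, limma with Benjamini-Hochberg adjustment). That call was lost after rescaling to TPM (adjusted p = 0.22 in limma) and without WT replicate 1 or 2 (0.085 and 0.17), within a range of 0.0025 to 0.22 over its alternatives. Bcl2l10, a survival paralog of oocytes, was listed at 0 in 3 libraries and at 0.07 FPKM in R111A replicate 2.

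The copies' promoters, from RefSeq on GRCm38.p6, are shown since the copies were at such different levels. Each has 300 bases, 250 before and 50 after a start site, and the capitals mark bases outside any run of at least 20 bases that all 3 hold. They are at chr9:88956670-88956969 (plus strand), chr9:89199023-89199322 (plus strand) and chr9:88731801-88732100 (minus strand).
Bcl2a1a promoter: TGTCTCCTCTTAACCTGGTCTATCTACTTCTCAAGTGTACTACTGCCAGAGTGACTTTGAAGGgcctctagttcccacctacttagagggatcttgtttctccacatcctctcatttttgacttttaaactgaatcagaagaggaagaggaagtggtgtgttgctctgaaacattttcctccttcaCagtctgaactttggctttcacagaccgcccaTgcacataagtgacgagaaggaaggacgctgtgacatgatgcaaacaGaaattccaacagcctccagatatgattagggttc
Bcl2a1b promoter: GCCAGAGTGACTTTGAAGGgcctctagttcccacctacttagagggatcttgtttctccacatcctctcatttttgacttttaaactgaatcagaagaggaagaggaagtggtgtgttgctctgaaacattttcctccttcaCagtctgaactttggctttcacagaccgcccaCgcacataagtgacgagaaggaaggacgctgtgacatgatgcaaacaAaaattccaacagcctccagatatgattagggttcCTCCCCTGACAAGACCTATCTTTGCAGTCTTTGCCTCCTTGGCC
Bcl2a1d promoter: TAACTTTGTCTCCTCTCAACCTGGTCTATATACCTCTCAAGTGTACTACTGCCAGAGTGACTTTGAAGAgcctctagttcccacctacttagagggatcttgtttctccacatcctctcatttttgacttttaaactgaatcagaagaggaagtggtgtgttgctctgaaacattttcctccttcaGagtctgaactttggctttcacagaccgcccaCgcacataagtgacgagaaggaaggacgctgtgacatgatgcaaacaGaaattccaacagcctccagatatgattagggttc
Shared runs covered 234 bases of the Bcl2a1a and Bcl2a1b promoters and 228 of the Bcl2a1d promoter, and the longest run was 174 bases between Bcl2a1a and Bcl2a1b and 84 bases between either and Bcl2a1d. The table places the Bcl2a1b start site further into the gene, so its promoter ends in bases that the windows of the other copies do not reach. The windows of the other copies in turn begin in bases that the Bcl2a1b window does not reach. The capitals are therefore not a map of differences between the copies. Shared runs shorter than 20 bases are in capitals too, and a short repeat that differs in length between copies lies in lower case. Whether these bases have a part in the levels was not tested. All 7 survival genes had a promoter in the table, 9 in all, with 3 for Bcl2l1. Of the 9, 1 held the NF-kB consensus on either strand, which 4.51% of 32851 promoters held, and none held TTCNNNGAA, the letters bound by STAT proteins, which 8.30% held. The match was in a Bcl2l1 promoter, from RefSeq at chr2:152830668-152830967 (minus strand, GRCm38.p6), shown with the match in capitals. It begins at position -242 from the start site.
Bcl2l1 promoter: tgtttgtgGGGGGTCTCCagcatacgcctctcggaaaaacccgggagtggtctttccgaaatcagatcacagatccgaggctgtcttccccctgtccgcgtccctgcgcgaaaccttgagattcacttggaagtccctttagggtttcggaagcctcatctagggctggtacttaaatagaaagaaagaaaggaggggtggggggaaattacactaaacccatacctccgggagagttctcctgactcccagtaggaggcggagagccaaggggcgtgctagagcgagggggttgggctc
A match is a description of letters and not a site of binding, and the absence of a match in the other windows says nothing of the factor.

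The order of the survival genes differed between groups. In WT Bcl2a1b was highest, followed by Mcl1 and Bcl2a1d, whose libraries overlapped (108.39 to 113.29 and 100.09 to 111.85 FPKM), then Bcl2l1, Bcl2, Bcl2l2 and Bcl2a1a. In R111A Bcl2a1d lay above Mcl1 without overlap, and Bcl2l1 and Bcl2 were close to each other (18.94 to 24.83 and 13.75 to 15.66 FPKM). Summed over the 7 genes, the FPKM was 629.37 and 704.59 in WT and 1018 and 1013 in R111A, 1.52 times as much in the mean, and 1.21 times in TPM, since the library totals were higher in R111A too. Without the Bcl2a1 copies the sum of the other 4 was 208.19 and 219.99 FPKM in WT against 191.99 and 189.75 FPKM in R111A. This was 0.89 times as much in the mean, as deposited. The sum of these 4 was not rescaled to TPM, where the higher library totals of R111A would make that fold lower.

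Shares within a library do not depend on how libraries were scaled. Bcl2l1 made up 14.1% and 13.6% of the summed FPKM of the 7 genes in WT and 2.44% and 1.87% in R111A. The Bcl2a1 copies together made up 66.9% and 68.8% in WT and 81.1% and 81.3% in R111A, with Bcl2a1d going from 15.9% in both WT libraries to 25.8% and 27.3%. Mcl1 made up 17.2% and 16.1% in WT and 14.8% and 15.4% in R111A, and Bcl2 1.41% and 1.28% in WT and 1.54% and 1.36% in R111A, where the groups overlapped. For Bcl2l1, Mcl1, Bcl2a1d and the summed copies the groups did not overlap, and the exact permutation test of 2 libraries against 2 gave a two-sided p of 0.333 for each, the smallest it allows. Among the 4 genes other than the Bcl2a1 copies, Mcl1 made up 52.1% and 51.5% in WT and 78.5% and 82.4% in R111A, and Bcl2l1 42.5% and 43.5% in WT and 12.9% and 9.98% in R111A.

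**Figure D2:**
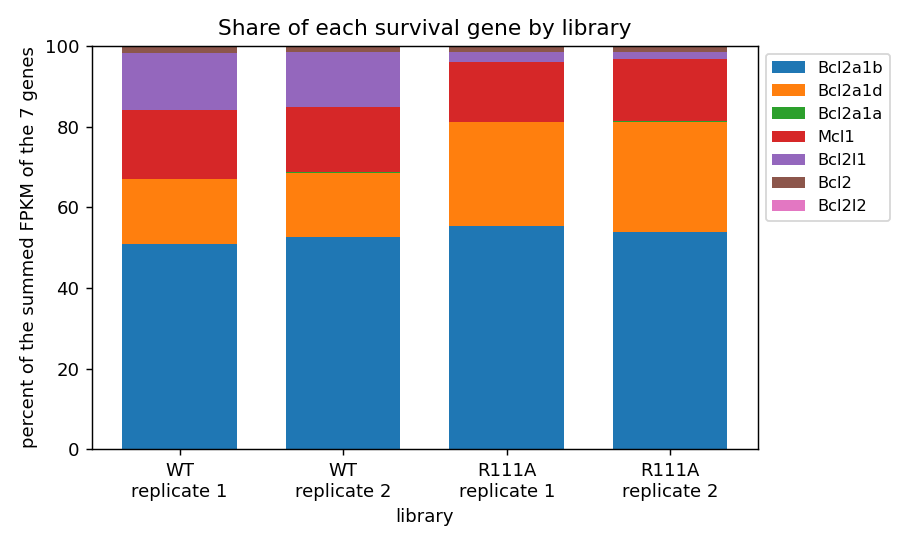
Stacked bars of the percent that each survival gene takes of the summed FPKM of the 7 genes, 1 bar per library. The Bcl2l1 band narrows from about 14% in the WT libraries to 2.44% and 1.87% in the R111A libraries, and the Bcl2a1d band widens.

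The ratio of Bcl2l1 to each other gene was read within each library. Bcl2l1 was 9.97 and 10.7 times Bcl2 in WT and 1.59 and 1.38 times Bcl2 in R111A, a log2 difference of -2.80. It was 0.817 and 0.845 times Mcl1 in WT and 0.165 and 0.121 times Mcl1 in R111A, a log2 difference of -2.56. Against the summed Bcl2a1 copies the ratio was 0.210 and 0.198 in WT and 0.0301 and 0.0230 in R111A, a log2 difference of -2.95. For each of these ratios the 2 groups did not overlap (exact permutation test, two-sided p = 0.333, the smallest possible). The ratio to Bcl2l2, which fell too, changed less, from 37.4 and 49.6 in WT to 32.7 and 24.9 in R111A. The ratio to Bcl2a1a, which was near 0, ranged from 64.7 to 491.9 within WT and could not be read.

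Of the 7 survival genes, 6 passed the filter, and all 6 passed an adjusted p of 0.05 in limma, 4 higher and 2 lower in R111A, of which Bcl2l2 met the filter only through WT. Over all 9831 genes tested 21.2% were called higher and 32.1% lower by this rule. With a 2-fold change added, 1 was called higher (Bcl2a1d) and 1 lower (Bcl2l1), against 8.52% and 8.34% of all genes. The number lower was 2 with a pseudocount of 0.1 FPKM, in TPM and with quantile normalization, where Bcl2l2 was at -1.38 to -1.06. The groups did not overlap for any of the 6, nor for 78.3% of all genes tested. With such shares called over the whole table, a count for the survival genes says little by itself.

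**Figure D3:**
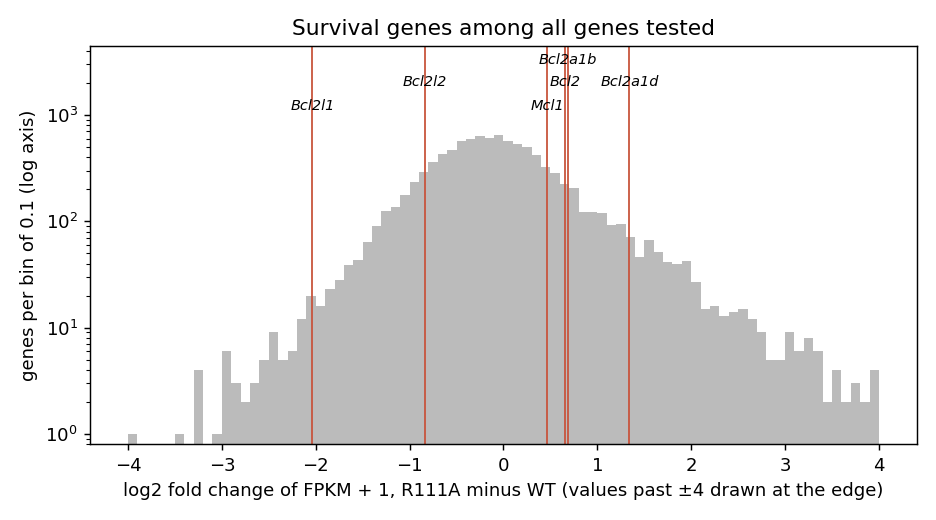
Histogram of the log2 fold change, R111A minus WT, of the 9831 genes tested, with a log axis for the number of genes and red lines at the 6 survival genes that passed the filter. Bcl2l1 lies in the lower tail, with 0.732% of genes below it, and Bcl2a1d lies with 5.13% of genes above it.

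The binding partners of the survival proteins moved in both directions. Of 7 measured BH3-only genes, 6 were tested, and 2 (33.3%) rose, 2 (33.3%) fell and 2 did not pass an adjusted p of 0.05 in limma, against 21.2% higher and 32.1% lower over all genes tested. Their median log2 fold change was -0.15, against -0.12 over all genes tested, and turned to 0.13 with a filter at 5 FPKM, which left out Bik, and to 0.039 without R111A replicate 2, and was -0.33 without R111A replicate 1. Bbc3, which encodes PUMA, a partner of all survival proteins, was at 6.35 and 6.43 FPKM in WT against 99.13 and 70.82 FPKM in R111A. Pmaip1, which encodes NOXA, a partner chiefly of MCL1 and A1, was at 1.97 and 2.32 FPKM in WT against 8.51 and 13.02 FPKM in R111A (log2 fold change 1.88, SE 0.20, adjusted p = 0.00011, limma with Benjamini-Hochberg adjustment). Both genes were higher in both R111A libraries.

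Bid, which links death receptors to mitochondria, fell from 31.82 and 35.84 FPKM to 12.15 and 10.17 FPKM (log2 fold change -1.52, SE 0.15, adjusted p = 7.7e-05, limma with Benjamini-Hochberg adjustment). Bik fell from 2.72 and 2.57 FPKM to 0.91 and 0.93 FPKM (log2 fold change -0.92, SE 0.13, adjusted p = 0.00066, limma with Benjamini-Hochberg adjustment). Like Bcl2l2, Bik passed the filter only through its WT values, and without a filter its adjusted p was 0.013 in limma. Bcl2l11, which encodes BIM, was at 23.80 and 23.33 FPKM in WT against 26.93 and 24.75 FPKM in R111A and did not pass (adjusted p = 0.44 in limma), and its direction turned to -0.20 after rescaling to TPM. Bad was at 7.26 and 8.59 FPKM in WT against 7.26 and 4.37 FPKM in R111A and did not pass (adjusted p = 0.12 in limma), but passed after rescaling to TPM and without R111A replicate 1 (adjusted p = 0.0063 and 0.0071 in limma, up to 0.50 over its alternatives). Bmf stayed below the filter, at 0.17 and 0.16 FPKM in WT against 0.69 and 0.74 FPKM in R111A. Without a filter its log2 fold change was 0.56 (adjusted p = 0.012 in limma), so it rose there outside the counts above.

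Of the 3 measured pore-forming effectors 2 were tested. Bax was at 270.23 and 301.10 FPKM in WT against 438.21 and 371.72 FPKM in R111A (log2 fold change 0.50, SE 0.14, adjusted p = 0.015, limma with Benjamini-Hochberg adjustment). This call was lost after rescaling to TPM, without a filter and without WT replicate 1 (adjusted p = 0.29, 0.088 and 0.16 in limma, 0.0038 to 0.29 over its alternatives). Bak1 was at 26.80 and 26.98 FPKM in WT against 26.31 and 23.16 FPKM in R111A and did not pass (adjusted p = 0.48 in limma, 0.019 after rescaling to TPM and up to 0.93 over its alternatives), and Bok was at 0.05 FPKM or less in each library. Set against Bcl2l1 within a library, a ratio chosen after the values were seen, Bbc3 was at 0.0717 and 0.0671 in WT and at 3.99 and 3.74 in R111A.

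**Figure D4:**
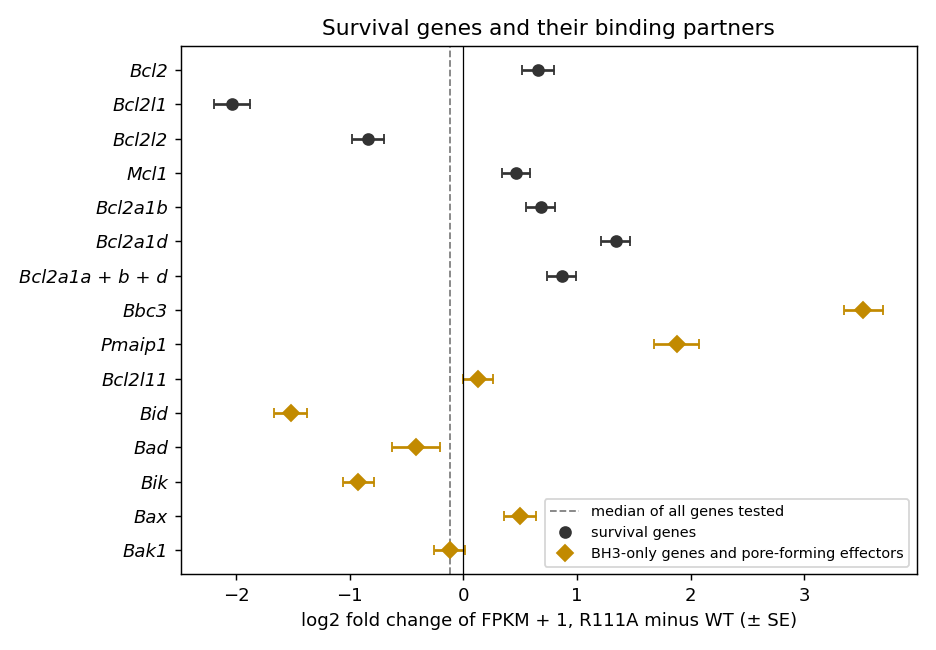
Log2 fold change of FPKM + 1, R111A minus WT, with SE bars from limma, for the tested survival genes and the sum of the Bcl2a1 copies (black circles) and for the tested BH3-only genes and effectors (yellow diamonds). The dashed line is the median of all genes tested, -0.12, and Bcl2l1 and Bbc3 lie farthest from it in each direction.

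Of 10 measured genes that act on the turnover of MCL1 protein, 8 were tested, and 3 (37.5%) fell and 0 rose past an adjusted p of 0.05 in limma, against 32.1% lower and 21.2% higher over all genes tested. Their median log2 fold change was -0.17, against -0.12 over all genes, and without R111A replicate 2 Gsk3a rose (adjusted p = 0.019 in limma). Dusp6, a phosphatase of ERK, was at 61.87 and 63.78 FPKM in WT against 24.81 and 26.00 FPKM in R111A. Marchf5, a mitochondrial ubiquitin ligase, was at 45.18 and 43.16 FPKM in WT against 23.13 and 24.47 FPKM in R111A, and Usp9x, a deubiquitinase that spares MCL1, at 20.79 and 19.28 FPKM in WT against 12.47 and 15.33 FPKM in R111A. The Usp9x call (adjusted p = 0.021 in limma) was lost without a filter, with quantile normalization and without either WT replicate (adjusted p up to 0.23, 0.00089 at the lowest). A further list, called the other BCL2 homology genes, holds 9 genes with BCL2 homology or named for binding BCL2 family proteins, as Bnip2 is. Of these, 7 were tested, 3 (42.9%) fell (Bnip3, Bnip2 and Bcl2l12) and 0 rose past an adjusted p of 0.05 in limma. Their median log2 fold change was -0.27. Bcl2l15, below the filter, was at 0.24 and 0.03 FPKM in WT against 1.45 FPKM in both R111A libraries. Without a filter its log2 fold change was 1.12 (adjusted p = 0.024 in limma). Bcl2l14, also below the filter, overlapped between groups. Without R111A replicate 1 Becn1 and Bnip3l rose (adjusted p = 0.019 and 0.010 in limma), and without R111A replicate 2 Bnip3l rose (0.047). The median was -0.14 without WT replicate 2. Bnip3 had a log2 fold change of -0.91 (SE 0.15, adjusted p = 0.0013, limma with Benjamini-Hochberg adjustment), and the calls of Bnip2 and Bcl2l12 were lost without a filter (adjusted p = 0.060 and 0.11 in limma), that of Bcl2l12 also without WT replicate 2 (0.22). Their adjusted p ranged from 2.7e-05 to 0.060 and from 0.00034 to 0.22 over the alternatives.

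The routes that induce survival genes also went both ways, as did the whole table, with 21.2% of all genes tested called higher and 32.1% lower. These shares were 13.6% and 51.8% in TPM, with a median log2 fold change of -0.42 over all genes, 11.8% and 13.4% of 16142 genes without a filter, and 14.4% to 25.8% and 19.7% to 38.6% with each library left out. Of 18 genes of IL-2 and STAT5 signaling, a route to Bcl2 and Bcl2l1, all were tested, and 3 (16.7%) rose and 10 (55.6%) fell past an adjusted p of 0.05 in limma, with a median log2 fold change of -0.54. Among those that fell, Socs2 met the filter only through its WT values, 5.94 and 5.79 FPKM against 0.46 and 0.59 FPKM in R111A. Without a filter 1 rose and 7 fell, since Il2rg, Pim1, Il2rb, Stat5b and Socs1 did not pass (adjusted p = 0.17, 0.071, 0.057, 0.087 and 0.24 in limma). In TPM 2 rose and 11 fell, with a median of -0.87. With quantile normalization 4 rose and 7 fell, with a median of -0.34, and a filter at 5 FPKM left 16 genes with a median of -0.28. Leaving out WT replicate 1 left 2 higher and 8 lower, WT replicate 2 left 2 and 9, R111A replicate 1 left 2 and 10, and R111A replicate 2 left 5 and 10, with a median of -0.35. Il2, the growth factor of activated T cells, fell from 100.13 and 96.90 FPKM to 3.98 and 2.58 FPKM, while Il7r, a receptor of resting T cells, rose from 4.58 and 3.77 FPKM to 43.62 and 37.54 FPKM. Pim2, a survival kinase, was at 136.56 and 137.68 FPKM in WT against 14.40 and 11.92 FPKM in R111A. Of 11 NF-kB subunits and feedback genes, a route to Bcl2a1 and Bcl2l1, 5 (45.5%) rose and 1 (9.09%) fell, with a median of 0.38. Without a filter 2 rose and 0 fell, since Relb, Tnfaip3, Birc3 and Nfkbie did not pass (adjusted p = 0.18, 0.076, 0.071 and 0.070 in limma). In TPM 2 rose and 4 fell, with a median of 0.050. Leaving out either WT replicate gave 3 higher and 0 lower, without R111A replicate 1 the counts were 5 and 3 with a median of 0.19, and without R111A replicate 2 they were 7 and 2. Nfkbia, the inhibitor that NF-kB induces, was at 148.78 and 160.98 FPKM in WT against 450.58 and 391.13 FPKM in R111A. Traf1 went from 28.66 and 28.45 FPKM to 59.39 and 50.20 FPKM and Birc3 from 47.78 and 45.75 FPKM to 67.78 and 86.72 FPKM. The Birc3 call (adjusted p = 0.0046 in limma) was also lost after rescaling to TPM (0.059), from 4.2e-05 at the lowest of its alternatives.

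Of 10 genes of CD28 and AKT signaling, 3 (30%) rose and 3 (30%) fell, against 21.2% and 32.1% of all genes tested, with a median of 0.11 that turned to -0.19 in TPM and was 0.065 without R111A replicate 2. Without a filter 1 rose and 2 fell, since Foxo1, Foxo3 and Akt1 did not pass (adjusted p = 0.10, 0.12 and 0.055 in limma). In TPM 2 rose and 4 fell, against 13.6% and 51.8% of all genes. Without WT replicate 1 the counts were 2 and 3, without WT replicate 2 they were 2 and 2, and without R111A replicate 2 they were 3 and 4. Pik3ip1, an inhibitor of PI3K, rose from 2.42 and 2.69 FPKM to 45.62 and 36.28 FPKM, and Akt1 and Pik3cd, the kinases of the route, fell from 83.65 and 86.03 FPKM to 48.87 and 35.71 FPKM and from 81.94 and 75.20 FPKM to 44.53 and 35.19 FPKM. The adjusted p of Akt1 was 2.4e-09 at the lowest of its alternatives. Of 16 p53 target genes, a list that holds Bbc3 and Bax, 14 were tested and all 14 rose past an adjusted p of 0.05 in limma, 11 of them 2-fold, against 21.2% and 8.52% of all genes tested, with a median of 1.72. Without a filter 11 passed, since Bax, Mdm2 and Trp53inp1 did not (adjusted p = 0.088, 0.11 and 0.065 in limma). Bax, Mdm2 and Zmat3 did not pass in TPM or with WT replicate 1 left out, which gave 11 each, and Mdm2 and Zmat3 did not with WT replicate 2 left out, which gave 12 (adjusted p = 0.076 to 0.29 in limma). Cdkn1a was at 14.29 and 15.45 FPKM in WT against 266.09 and 206.54 FPKM in R111A, and Phlda3 at 12.39 and 13.52 FPKM in WT against 156.03 and 117.70 FPKM in R111A. Whether any of these routes had a part in the survival genes was not tested.

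The genes whose values over the 4 libraries were most like Bcl2l1 were found by the Euclidean distance of log2(FPKM + 1) with each gene's mean taken off, among the 6038 genes averaging 10 FPKM or more. For Bcl2l1 they were Nefh (distance 0.07), Ung (0.09), Pold1 (0.10), Selenoh (0.11) and Igfbp4 (0.12). Nefh, a neurofilament subunit, was at 49.89 and 51.01 FPKM in WT against 13.51 and 10.32 FPKM in R111A. Ung is a DNA repair glycosylase and Pold1 the catalytic subunit of a replicative DNA polymerase. For Bcl2 they were Ncs1 (0.03), Irf9 (0.04), Lrch4 (0.04), Gtpbp2 (0.04) and Inf2 (0.04). Irf9, a factor of the interferon response, was at 21.72 and 22.51 FPKM in WT against 37.33 and 32.37 FPKM in R111A. With 4 libraries in 2 groups, likeness of this kind mostly reflects the size of the difference between groups. As for Bcl2, rescaling to TPM took all 5 of its nearest genes to an adjusted p of 0.05 or more in limma (0.050 for Gtpbp2 to 0.097 for Inf2). So did leaving out WT replicate 1 (0.061 for Ncs1 to 0.086 for Inf2), and leaving out WT replicate 2 for each but Gtpbp2 (0.056 for Irf9 to 0.085 for Inf2), while the lowest adjusted p of each over the alternatives was 0.00026 for Gtpbp2 to 0.0011 for Inf2.

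Markers of other cells were read in the same libraries, since a shift in cell makeup would touch each level above. Of the 6 Treg markers 0 rose and 3 fell, against 32.1% of all genes tested called lower. In TPM 6 fell, against 51.8% of all genes, and 5 fell with R111A replicate 2 left out, against 38.6%. Their sums were 389.23 and 406.50 FPKM in WT against 200.15 and 210.68 FPKM in R111A. Tnfrsf18 was the most abundant of them in WT, at 192.45 and 210.76 FPKM against 57.41 and 62.35 FPKM in R111A, and accounts for most of the drop in the sum. Il2ra was the most abundant in R111A, at 127.30 and 128.61 FPKM against 140.21 and 136.12 FPKM in WT. Foxp3, which defines these cells, was at 11.31 and 8.78 FPKM in WT against 2.86 and 1.86 FPKM in R111A. Ctla4 fell too, from 38.94 and 44.32 FPKM to 8.94 and 12.03 FPKM. Ikzf2 overlapped between groups, at 4.50 and 4.34 FPKM in WT against 2.35 and 4.36 FPKM in R111A. Ikzf2, Nrp1 and Il2ra did not pass (adjusted p = 0.19, 0.080 and 0.47 in limma). Whether fewer Treg cells or a lower level of these genes in other T cells lay behind the fall was not tested. The 6 B cell markers read here summed to 1.84 and 0.85 FPKM in WT against 4.97 and 4.60 FPKM in R111A, with Cd79a the most abundant in R111A (2.99 and 2.37 FPKM), Cd79b in WT replicate 1 (1.15 FPKM), both at 0.24 FPKM in WT replicate 2, and Pax5 at 0.06 FPKM or less in each library. The 10 myeloid markers summed to 5.97 and 2.80 FPKM in WT against 19.02 and 15.58 FPKM in R111A, with Cd68 the most abundant in R111A (8.89 and 6.81 FPKM), Tyrobp in WT replicate 1 (2.94 FPKM), Fcer1g in WT replicate 2 (0.80 FPKM) and Csf1r at 0.07 FPKM or less. Tyrobp was at 0.63 FPKM in WT replicate 2 and at 0.85 and 0.97 FPKM in R111A. The 9 neutrophil markers summed to 0.62 FPKM or less in WT and 3.13 and 1.51 FPKM in R111A, with S100a9 and Elane among 4 listed at 0 in each library. S100a8 was the most abundant in the mean over libraries, at 0 and 0.55 FPKM in WT against 2.20 and 0 FPKM in R111A, and Mpo was the most abundant in R111A replicate 2 (0.86 FPKM). The 6 mast cell and basophil markers summed to 0.79 FPKM or less in each library, with Kit the most abundant except in WT replicate 2, where Mcpt8 was at 0.42 FPKM against 0.20 FPKM for Kit, and the 2 CD8 T cell markers to 7.31 and 6.76 FPKM in WT against 3.88 and 4.46 FPKM in R111A, nearly all of it Cd8b1. The 5 NK cell markers summed to 1.03 and 0.82 FPKM in WT against 8.08 and 6.01 FPKM in R111A, most of it Eomes, which T cells also express, with Ncr1 at 0.30 FPKM or less. The 9 erythroid and platelet markers summed to 0.94 and 1.01 FPKM in WT against 22.92 and 23.29 FPKM in R111A, with Hba-a1 the most abundant and Hba-a2, Hbb-bs and Pf4 listed at 0. In R111A nearly all of this was Hba-a1, at 0.66 and 0.44 FPKM in WT against 12.26 and 11.74 FPKM in R111A, and the platelet marker Itga2b, at 0.28 and 0.31 FPKM in WT against 9.92 and 10.24 FPKM in R111A. The part of these shifts in the survival gene values was not tested.

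**Figure D5:**
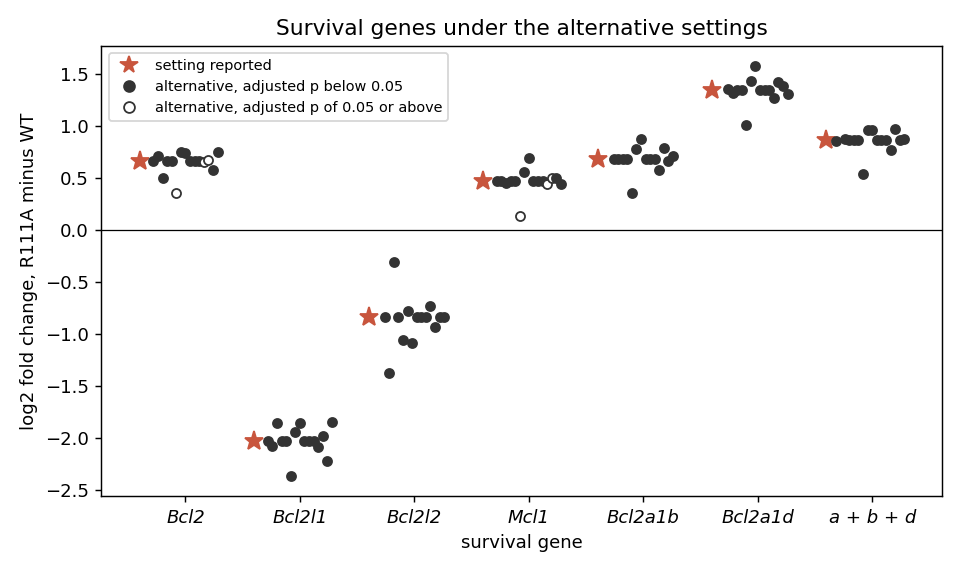
Log2 fold change, R111A minus WT, of the tested survival genes and of the summed Bcl2a1 copies under the setting reported (red star) and each alternative (filled circles for an adjusted p below 0.05 in limma, open circles for 0.05 or above). All values keep their sign, and open circles appear for Bcl2 and Mcl1, 3 for each.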

How the data were processed

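The authors aligned polyA RNA-seq reads to mm10 with Bowtie2 (version 2.4.4), estimated expression with RSEM (version 1.2.28) and deposited FPKM values of 16142 genes in 4 libraries, per the submitters' processing notes. They called differential expression with DESeq2 on counts, which was not repeated. No per-sample column was left out (0 columns). The annotation and read length are not given in the sources used here.

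Here log2(FPKM + 1) was fitted with limma (version 3.58.1, R 4.3.3; lmFit and eBayes with trend) for genes averaging 1 FPKM or more, with Benjamini-Hochberg adjustment over all 9831 of them, and calls were made at an adjusted p of 0.05, alone and with a 2-fold change. The procedure was tested on simulated data. The smallest two-sided p of an exact permutation test of 2 libraries against 2 is 0.333, and limma instead borrows its spread from all genes. Sequences came from GENCODE vM21 transcripts and RefSeq promoters of GRCm38, with python 3.11.15, numpy 2.4.6 and pandas 2.3.3. The members and lists were chosen with earlier results of these data known. Genes named were the 7 survival genes, the BH3-only genes and effectors, up to 3 genes of each other list with the largest change past the threshold and no overlap between groups, the 5 nearest genes to Bcl2l1 and to Bcl2, and Zc3h12a. Other genes of these lists were named where a call changed under an alternative or where the filter bears on them. Bcl2l10 was named as another survival paralog, and other genes for sharing sequence with the survival genes. Marker genes and those whose ratio is said to be chosen later were named after their values were seen. The values of 1 marker gene are not reported here, and the sum of its list leaves it out. Alternatives were other pseudocounts, filters, scalings, eBayes settings, a replicate block, the Bcl2a1 copies summed and each library left out.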

Additional observations from a re-analysis of the deposited data

How the results depend on the processing

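Bcl2l1, Bcl2l2, Bcl2a1b, Bcl2a1d and the summed Bcl2a1 copies kept their direction and an adjusted p below 0.05 in limma under each alternative that could be run for them, with log2 fold changes of -2.37 to -1.85, -1.38 to -0.31, 0.35 to 0.87, 1.01 to 1.57 and 0.53 to 0.97. Bcl2l2 was not tested under the filter of 5 FPKM, which left 1 survival gene lower. Adding Bcl2a1c to the sum, chosen after seeing the data, gave 0.85. Rescaling to TPM gave 0.35 for Bcl2 and 0.13 for Mcl1 and left 2 survival genes called higher. Leaving out each library gave 0.57 to 0.75 for Bcl2, 0.43 to 0.50 for Mcl1 and 2 to 4 survival genes called higher. Bcl2l11 turned to -0.20 in TPM.

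Over all genes, TPM gave 1335 higher and 5096 lower by the adjusted p, 20.8% higher against 39.8% of 2088 and 3152 as deposited, and 1749 lower by 2-fold, against 820. The 2-fold counts were 386 higher and 402 lower with a pseudocount of 5 FPKM, and 521 higher with a filter at 5 FPKM, against 838. Leaving out each library gave 1937 to 3790 lower by the adjusted p, where the lone library of a group is assumed to vary like the others.

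Median log2 fold changes in TPM were -0.46 for BH3-only genes, -0.59 for other BCL2 homology genes, -0.44 for MCL1 turnover, -0.87 for IL-2 and STAT5, 0.050 for NF-kB, -0.19 for CD28 and AKT and 1.39 for p53 targets. The other BCL2 homology genes had -0.23 with a pseudocount of 5 FPKM, -0.19 with a filter at 5 FPKM, -0.18 with median-of-ratios factors, -0.16 with quantile normalization and -0.39 to -0.14 without each library. The p53 targets had 1.38 with a pseudocount of 5 FPKM, 1.81 with median-of-ratios factors, 1.89 with quantile normalization and 1.52 to 1.95 without each library. NF-kB genes had 0.62 with quantile normalization and 0.19 to 0.53 without each library. MCL1 turnover genes had -0.096 with a pseudocount of 5 FPKM and with median-of-ratios factors, and -0.27 with a filter at 5 FPKM. BH3-only genes had 0.13 with a filter at 5 FPKM, which left fewer genes, and -0.33 to 0.039 without each library. The counts of genes past the adjusted p in these lists moved too. Counts of these lists without a filter cover only the genes that met the filter of 1 FPKM. On these, 1 of the other BCL2 homology genes was lower and 1 IL-2 and STAT5 gene higher. Of NF-kB genes 2 were higher and 0 lower, and 1 CD28 and AKT gene was higher. Outside these counts, Bcl2l15 and Bmf passed as higher without a filter (log2 fold change 1.12 and 0.56, adjusted p = 0.024 and 0.012 in limma). With a filter at 5 FPKM 1 BH3-only gene was lower. In TPM 5 of the other BCL2 homology genes were lower, and 2 NF-kB genes higher and 4 lower. Median-of-ratios factors gave 1 other BCL2 homology gene and 5 IL-2 and STAT5 genes higher, quantile normalization 2 other BCL2 homology genes higher and 0 NF-kB genes lower, and the replicate block 5 IL-2 and STAT5 genes higher. Leaving out each library gave 0 to 2 other BCL2 homology genes, 0 to 1 MCL1 turnover genes, 2 to 5 IL-2 and STAT5 genes and 3 to 7 NF-kB genes higher, and 0 to 3 NF-kB genes lower. Shares without the Bcl2a1 copies, R111A minus WT, were 3.53 points for Bcl2, -31.6 for Bcl2l1, -0.610 for Bcl2l2 and 28.7 for Mcl1, against 0.105, -11.7, -0.250 and -1.53 with them, since the copies take most of the total. Leaving out each library moved the values with the copies to 0.0141 to 0.196 points for Bcl2 and -2.10 to -0.956 for Mcl1. The cause of the other changes was not tested.

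The replicate numbers are not known to pair the libraries, and same-numbered deviations correlated at 0.11 across genes over 2 pairs. With the replicate block 2236 genes were higher and 3358 lower by the adjusted p, and Bad passed it at 0.035. Of 1130 results over all alternatives, 1026 kept their direction and side of the threshold, or moved within the spread or within 1.5 times for a count. The lack of read counts limits what can be said of low genes such as Bcl2a1a.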
